A study of Mus musculus with 18 samples.

Results

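The genes for the proteins of the mitochondrial ribosome were examined in mouse colon organoids, epithelial cultures grown from the colon. The set was picked with earlier results of these data known, but membership went by name and not by any measured value. It holds the protein-coding genes of the expression table whose symbol is Mrpl or Mrps followed by a digit. This gave 78 genes, 49 named Mrpl and 29 named Mrps, of 56748 genes in the table and 21970 protein-coding genes. RNA was sequenced from 18 libraries in 6 groups of 3. Organoids came from the proximal, the mid or the distal colon, and those of each region were kept either in differentiation medium or in control medium. Control medium consisted of ENR plus Wnt3a CM and stands for the proliferative state, and both media were given from day 3 after passaging. The sources used here give no composition for the differentiation medium, and no strain, age or number of animals. Libraries are numbered 1 to 3 in each group, and nothing states that the numbers stand for separate animals or cultures, so the p-values reflect the spread between these samples alone.

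The mitochondrial ribosome makes the proteins that are encoded in mitochondrial DNA, all of which belong to the respiratory chain and the ATP synthase. Its rRNAs are transcribed in the mitochondrion, whereas all of its proteins are encoded in the nucleus, made in the cytosol and imported. Some of these proteins have counterparts in the bacterial ribosome and others are found only in mitochondria. In the colon, surface colonocytes are known for oxidising butyrate in their mitochondria, while crypt cells divide.

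The symbols do not fully give the place of a protein. Among the 77 genes with enough signal to be tested, 50 encode proteins of the large subunit and 26 proteins of the small subunit. Mrps18a and Mrps30 are counted in the large subunit despite their names. The protein of Mrps36 is now placed in the alpha-ketoglutarate dehydrogenase complex of the citric acid cycle and not in the ribosome, and it was kept because the selection went by name. The remaining gene, Mrpl53, which encodes a protein of the stalk of the large subunit, was listed at 0 in all 18 libraries. It lies wholly inside the predicted gene Gm42688 on the same strand, and the handling of reads shared by both is not stated.

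RefSeq promoter windows of 300 bases (250 before to 50 after the start, build GRCm38.p6, whereas the expression table uses mm39) were available for 69 of the 78 genes. A few are printed because the results below turn on these genes. Mrps2 had the largest fall, as a mean over the 3 regions, among genes with a window, Mrpl37 the largest such mean among those with a YY1 motif, Mrpl14 alone rose in all 3 regions, Mrps6 responded to the medium differently between regions, and Mrpl12 had the highest level. Capitals mark letters that match a searched motif, on either strand. The windows are chr2:28467816-28468115 on the plus strand (Mrps2), chr4:107066817-107067116 on the minus strand (Mrpl37), chr17:45686099-45686398 on the plus strand (Mrpl14), chr16:92058086-92058385 on the plus strand (Mrps6) and chr11:120484387-120484686 on the plus strand (Mrpl12).
Mrps2: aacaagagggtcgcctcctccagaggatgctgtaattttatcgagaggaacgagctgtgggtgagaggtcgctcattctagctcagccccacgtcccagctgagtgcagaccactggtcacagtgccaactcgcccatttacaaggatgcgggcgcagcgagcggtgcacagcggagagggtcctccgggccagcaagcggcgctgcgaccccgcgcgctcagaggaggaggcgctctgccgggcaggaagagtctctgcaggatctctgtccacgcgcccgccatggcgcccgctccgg
Mrpl37: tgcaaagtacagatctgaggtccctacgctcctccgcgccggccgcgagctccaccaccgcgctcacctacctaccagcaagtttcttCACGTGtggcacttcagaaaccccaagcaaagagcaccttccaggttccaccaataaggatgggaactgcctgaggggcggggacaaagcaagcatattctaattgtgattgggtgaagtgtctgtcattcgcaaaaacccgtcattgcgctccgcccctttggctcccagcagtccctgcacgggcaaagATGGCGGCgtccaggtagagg
Mrpl14: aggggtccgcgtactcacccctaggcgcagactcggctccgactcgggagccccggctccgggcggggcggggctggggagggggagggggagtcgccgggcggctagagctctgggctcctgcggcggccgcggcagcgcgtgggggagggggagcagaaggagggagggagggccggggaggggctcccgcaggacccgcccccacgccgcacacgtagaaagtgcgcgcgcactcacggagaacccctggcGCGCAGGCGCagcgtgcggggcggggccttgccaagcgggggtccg
Mrps6: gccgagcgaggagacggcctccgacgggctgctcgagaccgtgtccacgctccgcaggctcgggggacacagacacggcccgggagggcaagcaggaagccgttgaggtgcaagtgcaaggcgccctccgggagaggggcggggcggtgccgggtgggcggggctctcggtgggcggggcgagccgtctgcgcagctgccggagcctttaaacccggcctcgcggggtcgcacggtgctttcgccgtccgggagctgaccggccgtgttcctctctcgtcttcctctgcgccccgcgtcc
Mrpl12: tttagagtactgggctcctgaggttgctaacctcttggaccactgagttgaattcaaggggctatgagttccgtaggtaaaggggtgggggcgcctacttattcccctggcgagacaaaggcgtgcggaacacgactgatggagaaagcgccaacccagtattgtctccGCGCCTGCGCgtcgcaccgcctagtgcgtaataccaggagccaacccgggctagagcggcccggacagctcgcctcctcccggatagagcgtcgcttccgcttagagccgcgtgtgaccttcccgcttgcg

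The motifs searched were GCGCA, any base and then GCGC for NRF1, CCGGAAGT for ETS factors such as GABP, ATGGCGGC for YY1 and the E-box CACGTG, which Myc binds. NRF1, GABP and YY1 are known as regulators of nuclear genes for mitochondrial proteins. Only the first window listed for a gene symbol was searched, and windows on chromosome 18 were left out. The YY1 letters stood in 12 of the 69 windows of mitochondrial ribosomal genes (17.39%), against 5.328% of 9178 windows of tested genes and 2.376% of all 27025 windows searched. In Mrpl37 they begin at position +30, counted from the start of transcription, and the window also holds an E-box at -162. The NRF1 letters stood in 13 of 69 windows (18.84%), against 11% of windows of tested genes and 4.784% of all windows, and they begin at +5 in Mrpl14 and at -81 in Mrpl12. ETS letters stood in 11 windows (15.94%), against 8.858% of tested genes and 4% of all. The E-box stood in 5 windows (7.246%), against 10.39% of tested genes and 7.241% of all. Windows of genes that were lower in differentiation medium in at least 1 region held the YY1 letters in 9 of 38 cases, windows of genes that were higher in at least 1 region in 1 of 12, and windows of genes called in no region in 1 of 18. In the same order, ETS letters stood in 5 of 38, 4 of 12 and 2 of 18 windows. The NRF1 letters stood in 7, 2 and 4 of these windows, and the E-box in 3, 1 and 1. The split was not tested for any motif. The windows of Mrps2 and Mrps6 held none of the 4 motifs. A match is a description of the letters and not evidence of binding.

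Recovered depth was 12827751 to 19938198 reads per library, and each gene that passed the filter had a median of at least 143 reads per library (461.5 for the median gene). Proximal differentiation replicate 1 stood apart from the other libraries of its group. Its mean over 20 genes of cycling cells was 3.52 on the log2(FPKM + 1) scale, against 1.17 and 1.51 in the other proximal differentiation libraries and 2.75 to 3.90 in proximal control libraries. Proximal counts, and the values of the genes that fell most, are therefore also given without it. Epithelial markers summed to 8119 to 10949 FPKM in differentiation libraries and 3304 to 7579 in control libraries. Fibroblast markers summed to at most 0.176 FPKM, with Col1a2 and Lum at 0 throughout, endothelial markers to at most 0.677, and neural and muscle markers to at most 0.216, with Sox10 at 0. Summed immune markers were at 0.311 to 1.73 FPKM in differentiation libraries and 1.98 to 4.05 in control libraries, and their part in the results was not tested. These are bulk samples, in which fewer cells of a type and less RNA per cell cannot be told apart.

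Levels of the 77 measured genes spanned a ratio of 25.7 per length, and are given as mean FPKM over the 18 libraries. The median was 10.6, with 17 genes under 5 and 18 genes over 20. Mrpl12, the L7/L12 protein of the stalk that recruits translation factors (ENSMUSG00000039640, mm39 chromosome 11, 120375439 to 120379891, plus strand), was the most abundant at 68.7. It was followed by Mrpl34, a large-subunit protein with a bacterial counterpart (49.6), Mrps21, a small-subunit protein with a bacterial counterpart (48.1), and Mrps6, also of the small subunit (36.8). Mrpl48, a protein of the central protuberance, where the subunits meet, was lowest of the measured genes at 2.67. The median was 13.0 for large-subunit genes and 8.96 for small-subunit genes. The lengths in the table ran from 607 to 8631 bases, and a length that counts rarely used exons lowers the FPKM of a gene relative to others. The genes lie on 17 chromosomes, with 11 of them on chromosome 11.

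Taken as a group, the genes held a smaller share of the RNA in differentiation medium. They took 0.189% ± 0.0439 of reads in proximal differentiation libraries and 0.265% ± 0.0224 in proximal control libraries (SD, n = 3 each). In mid organoids the share was 0.172% ± 0.0199 in differentiation and 0.298% ± 0.0259 in control libraries. In distal organoids it was 0.185% ± 0.00590 in differentiation and 0.299% ± 0.0355 in control libraries. The media did not overlap in any region. The FPKM rest on library sizes that were proportional to median-of-ratios factors and not to total reads, and summed FPKM differed less. It was 993 ± 119 in proximal differentiation and 1054 ± 77.7 in proximal control libraries, 1044 ± 105 in mid differentiation and 1212 ± 107 in mid control libraries, and 1124 ± 116 in distal differentiation and 1184 ± 115 in distal control libraries, with overlap between the media in every region.

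The comparison of differentiation with control medium in each region asks which genes differ between the differentiated and the proliferative state. In mid organoids, 39 of the 77 genes were lower in differentiation medium and 3 were higher (limma, adjusted p under 0.05). Called genes made up 54.5% of the 77, against 63.5% of all tested genes, 32.0% lower and 31.5% higher. In distal organoids, 35 genes were lower and 9 higher (57.1% called), against a background of 62.9% called, 31.3% lower and 31.6% higher. In proximal organoids, 24 genes were lower and 6 higher (39.0% called), against 53.8% called, 26.2% lower and 27.6% higher. In each region the share called was below the background, and most called genes were lower, whereas the background was split near evenly. These shares were not tested against each other.

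The median log2 fold change of the 77 genes was -0.18 in proximal, -0.40 in mid and -0.30 in distal organoids, where the median over all tested genes was -0.01, 0 and 0.00. Values were below 0 for 54, 61 and 55 genes in the 3 regions in that order. When libraries were instead scaled to total reads, the median of all genes shifted to -0.26, -0.34 and -0.35 in proximal, mid and distal organoids, and the genes' median lay 0.20, 0.43 and 0.35 below it. On that scaling 48 genes were lower and 1 higher in proximal, 60 lower and 1 higher in mid, and 57 lower and 1 higher in distal organoids. The shares of all tested genes called on that scaling are not given here, so these counts include the shift of the whole table. Every gene called lower stayed lower (24, 39 and 35), while 1 called rise in each region stayed a call and 2 of the 9 in distal organoids turned below 0. This scaling moves values down in differentiation medium, so falls tend to keep their call and rises to lose it. The kept falls are therefore no separate evidence for a fall. Without proximal differentiation replicate 1, 33 genes were lower and 5 higher in proximal organoids, among them all 24 of the lower genes and 5 of the 6 higher ones, and the median was -0.29. That library was the highest of its group for all 24 of the lower genes, and also for 37 of the 47 genes not called. For 3 of the 6 higher genes it was the lowest of its group. The proximal count rests on the other libraries too, since 11 genes were lower without proximal differentiation replicate 2 and 13 without replicate 3. For fits that leave out a library, the shares of all tested genes called are not given here or below. Changes in these counts may therefore include a general gain or loss of calls.

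**Figure D1:**
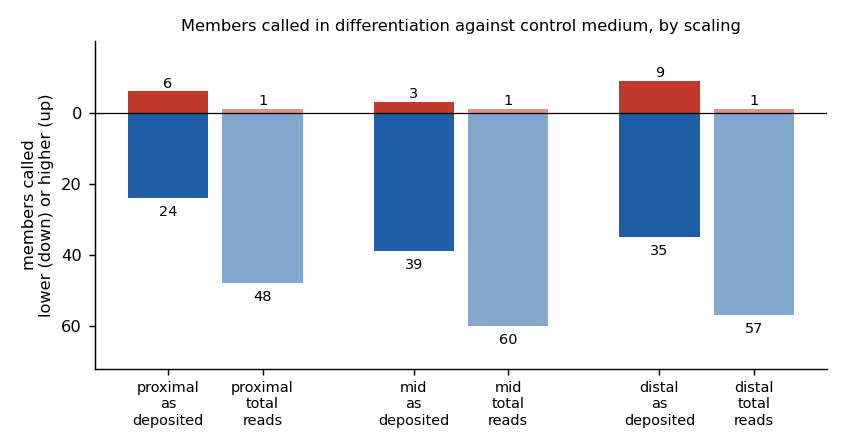
Number of mitochondrial ribosomal genes called in differentiation against control medium in each region (limma, adjusted p under 0.05), drawn upward for higher and downward for lower, with FPKM as deposited and with libraries scaled to total reads. The lower counts of 24, 39 and 35 became 48, 60 and 57 when libraries were scaled to total reads, and the higher counts of 6, 3 and 9 became 1 in each region. On that scaling the median of all tested genes also shifted, to -0.26, -0.34 and -0.35 in proximal, mid and distal organoids.

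Across the regions, 21 genes (27.3%) were lower in all 3 and 1 gene (1.3%) was higher in all 3. Of all tested genes, 19.5% were lower in all 3 regions and 20.1% were higher in all 3. Called in at least 1 region were 56 genes (72.7%, background 78.6%). Lower in at least 1 region were 44 genes (57.1%, background 39.5%), and higher in at least 1 region were 12 (15.6%, background 40.1%). No gene was called with unlike signs in different regions, which 0.993% of all genes were, and 21 genes (27.3%, background 21.4%) were called in none. The 21 lower genes include 11 of the large subunit named Mrpl (Mrpl3, Mrpl13, Mrpl17, Mrpl19, Mrpl21, Mrpl23, Mrpl36, Mrpl37, Mrpl38, Mrpl44 and Mrpl52), Mrps30 of the large subunit, and 9 of the small subunit (Mrps2, Mrps5, Mrps7, Mrps14, Mrps17, Mrps18b, Mrps22, Mrps27 and Mrps28). The 3 medium comparisons share no libraries.

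**Figure D2:**
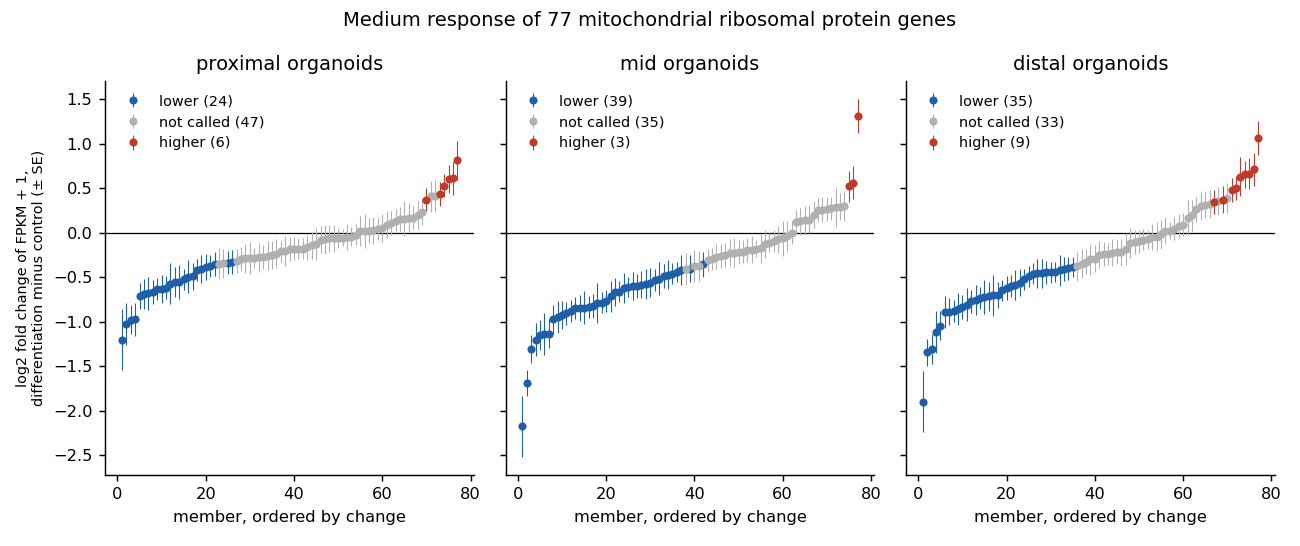
Log2 fold change of FPKM + 1 in differentiation minus control medium for each of the 77 measured genes in proximal, mid and distal organoids, with the standard error, coloured by call (limma, adjusted p under 0.05). Most values lie below 0 (54, 61 and 55 of 77), and the largest fall is that of Mrps28 in each region. All called falls keep their direction and call when libraries are scaled to total reads, whereas 1 called rise per region stays a call. That scaling moves values down in differentiation medium, which favours falls over rises.

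Mrps28, the small-subunit protein related to bacterial S1 (ENSMUSG00000040269, mm39 chromosome 3, 8867206 to 8988978, minus strand), had the largest fall of all. In mid organoids it was at 4.27, 3.76 and 1.47 FPKM in differentiation libraries, against 18, 17.8 and 15.1 in control libraries. In distal organoids it was at 3.03, 2.16 and 4.62 FPKM in differentiation libraries and 14.7, 16.2 and 12.8 in control libraries. In proximal organoids it was at 10.5, 2.96 and 3.96 FPKM in differentiation libraries and 15.9, 12.2 and 11.4 in control libraries. The media did not overlap in any region, and in proximal organoids replicate 1 of the differentiation group came nearest to the controls. The group means in control medium were 5.35 times those in differentiation medium in mid, 4.46 times in distal and 2.26 times in proximal organoids. The log2 fold change was -2.18 ± 0.34 in mid (SE, adjusted p = 6.14e-05, limma), -1.90 ± 0.34 in distal (adjusted p = 0.000207) and -1.20 ± 0.34 in proximal organoids (adjusted p = 0.00825). The proximal call was lost without differentiation replicate 2 (adjusted p = 0.0531). Without proximal differentiation replicate 1 the control mean was 3.81 times the differentiation mean, and the log2 fold change was -1.66 ± 0.29 (adjusted p = 0.000201).

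Mrpl38, a mitochondrion-specific protein of the central protuberance (ENSMUSG00000020775, mm39 chromosome 11, 116022643 to 116029694, minus strand), fell most after Mrps28 in mid and distal organoids. In mid organoids it was at 5.71, 5.48 and 4.45 FPKM in differentiation libraries and 19.0, 20.3 and 17.7 in control libraries. In distal organoids the differentiation libraries were at 7.23, 5.78 and 8.31 FPKM and the control libraries at 20.4, 20.2 and 17.9. In proximal organoids the values were 13.7, 9.20 and 8.69 FPKM in differentiation medium and 18.5, 16.8 and 17.4 in control medium. The replicates lay close together compared with the gap between the media, which did not overlap in any region. The log2 fold change was -1.69 ± 0.15 in mid (adjusted p = 2.82e-07, limma), -1.35 ± 0.15 in distal (adjusted p = 2.85e-06) and -0.71 ± 0.15 in proximal organoids (adjusted p = 0.00102).

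Mrps2, the counterpart of bacterial S2 in the small subunit (ENSMUSG00000035772, mm39 chromosome 2, 28358078 to 28361190, plus strand), fell by nearly the same amount in each region. In proximal organoids it was at 9.46, 4.48 and 5.89 FPKM in differentiation and 16.7, 12.4 and 13.2 in control libraries. Mid organoids held 5.73, 5.76 and 5.03 FPKM in differentiation and 13.7, 13.4 and 12.7 in control libraries, and distal organoids 3.35, 5.78 and 7.19 in differentiation and 11.7, 16.2 and 10.3 in control libraries. Every differentiation library lay below every control library of its region. The log2 fold change was -1.03 ± 0.24 in proximal, -1.14 ± 0.24 in mid and -1.12 ± 0.24 in distal organoids (adjusted p = 0.00205, 0.000686 and 0.000813, limma).

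The counterparts of bacterial L19 and L23 were lower in all 3 regions as well. Mrpl19 averaged 2.84 ± 1.08 FPKM in proximal differentiation and 6.40 ± 0.599 in proximal control libraries, 2.14 ± 0.218 in mid differentiation and 5.92 ± 0.771 in mid control libraries, and 2.47 ± 0.324 in distal differentiation and 6.16 ± 0.854 in distal control libraries (SD, n = 3 each). Its log2 fold change was -0.98 ± 0.16, -1.13 ± 0.16 and -1.04 ± 0.16 in the 3 regions in that order (adjusted p = 0.000164, 2.47e-05 and 5.60e-05, limma). Mrpl23, which lies at the exit of the peptide tunnel, averaged 2.56 ± 1.03 FPKM in proximal differentiation and 5.82 ± 0.266 in proximal control libraries, 2.07 ± 0.524 in mid differentiation and 5.99 ± 0.532 in mid control libraries, and 2.55 ± 0.127 in distal differentiation and 5.68 ± 1.43 in distal control libraries. Its log2 fold change was -0.97 ± 0.18, -1.20 ± 0.18 and -0.89 ± 0.18 (adjusted p = 0.000453, 4.58e-05 and 0.00062, limma). For both genes the media did not overlap in any region. Without proximal differentiation replicate 1, the proximal log2 fold changes of Mrpl38, Mrps2, Mrpl19 and Mrpl23 were -0.90, -1.29, -1.20 and -1.20, each still called (limma, adjusted p of 3.71e-06 for Mrpl19 to 0.000254 for Mrps2).

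Further falls were larger in mid or distal than in proximal organoids by their fitted values. Tested as an interaction, the response of Mrps18b was not called different between regions. That of Mrpl37 was called between mid and proximal organoids alone. Mrps18b, 1 of 3 mitochondrial relatives of bacterial S18 and a small-subunit protein, was at 2.91, 3.01 and 3.08 FPKM in distal differentiation libraries and 9.88, 8.67 and 8.25 in distal control libraries. Its log2 fold change was -1.31 ± 0.17 in distal, -1.15 ± 0.17 in mid and -0.55 ± 0.17 in proximal organoids (adjusted p = 9.95e-06, 2.95e-05 and 0.0111, limma). Mrpl37, a mitochondrion-specific large-subunit protein, was at 4.43, 4.84 and 2.99 FPKM in mid differentiation libraries and 11.4, 12 and 10.9 in mid control libraries. Its log2 fold change was -1.31 ± 0.15 in mid, -0.89 ± 0.15 in distal and -0.49 ± 0.15 in proximal organoids (adjusted p = 4.30e-06, 0.000144 and 0.014, limma). Both proximal calls were lost without proximal differentiation replicate 2 (adjusted p = 0.0695 for Mrps18b and 0.0699 for Mrpl37), that of Mrpl37 also without differentiation replicate 3 (adjusted p = 0.0687) and that of Mrps18b without control replicate 1 (adjusted p = 0.0588). Without proximal differentiation replicate 1 the proximal values were -0.75 for Mrps18b and -0.68 for Mrpl37, nearer to those of the other regions.

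The relatives of S18 did not move together. Mrps18c, the small-subunit relative that keeps the place of bacterial S18, was higher in proximal differentiation libraries at 12.2, 8.16 and 13.2 FPKM, against 6.46, 6.88 and 7.33 in proximal control libraries (log2 fold change 0.60 ± 0.15, adjusted p = 0.00404, limma). The groups did not overlap, but the call was lost when libraries were scaled to total reads (0.32, adjusted p = 0.121). Mrps18a, which sits in the large subunit, averaged 4.57 ± 0.801 FPKM in distal differentiation and 6.54 ± 0.454 in distal control libraries and was lower there (-0.45 ± 0.13, adjusted p = 0.00772), with values of -0.31 in mid (adjusted p = 0.0505) and -0.32 in proximal organoids (adjusted p = 0.051). Mrps30, the other large-subunit protein with a small-subunit name, fell in all 3 regions. It was at 2.59, 2.04 and 1.81 FPKM in proximal differentiation and 4.40, 3.57 and 3.61 in proximal control libraries, and its log2 fold change was -0.63 ± 0.13 in proximal, -0.83 ± 0.13 in mid and -0.88 ± 0.13 in distal organoids (adjusted p = 0.000711, 4.31e-05 and 2.91e-05, limma).

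The single gene that was higher in all 3 regions was Mrpl14, the counterpart of bacterial L14 on the large-subunit face that meets the small subunit (ENSMUSG00000023939, mm39 chromosome 17, 45997248 to 46009421, plus strand). It was at 28.6, 45.3 and 34.6 FPKM in proximal differentiation libraries and 24.1, 22.0 and 22.5 in proximal control libraries. In mid organoids it was at 44.1, 34.0 and 42.1 FPKM in differentiation and 25, 29.0 and 26.1 in control libraries, and in distal organoids at 58.3, 44.0 and 33.2 in differentiation and 27.0, 29.7 and 22.9 in control libraries. The media did not overlap in any region, although the differentiation libraries were widely spread. The log2 fold change was 0.61 ± 0.19 in proximal, 0.56 ± 0.19 in mid and 0.72 ± 0.19 in distal organoids (adjusted p = 0.0119, 0.0157 and 0.00362, limma). With libraries scaled to total reads the values stayed above 0 at 0.30, 0.14 and 0.27, but none was called (adjusted p = 0.086, 0.41 and 0.114). The proximal call was lost without differentiation replicate 2 (adjusted p = 0.0731), and the mid call without differentiation replicate 1 or control replicate 1 (adjusted p = 0.0604 and 0.0503). Mrpl14 overlaps Tmem63b on the opposite strand by 584 bases, at a mean of 28.1 FPKM for Tmem63b. The labels leave the strand of the libraries unstated, so reads of the overlap cannot be told apart.

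**Figure D3:**
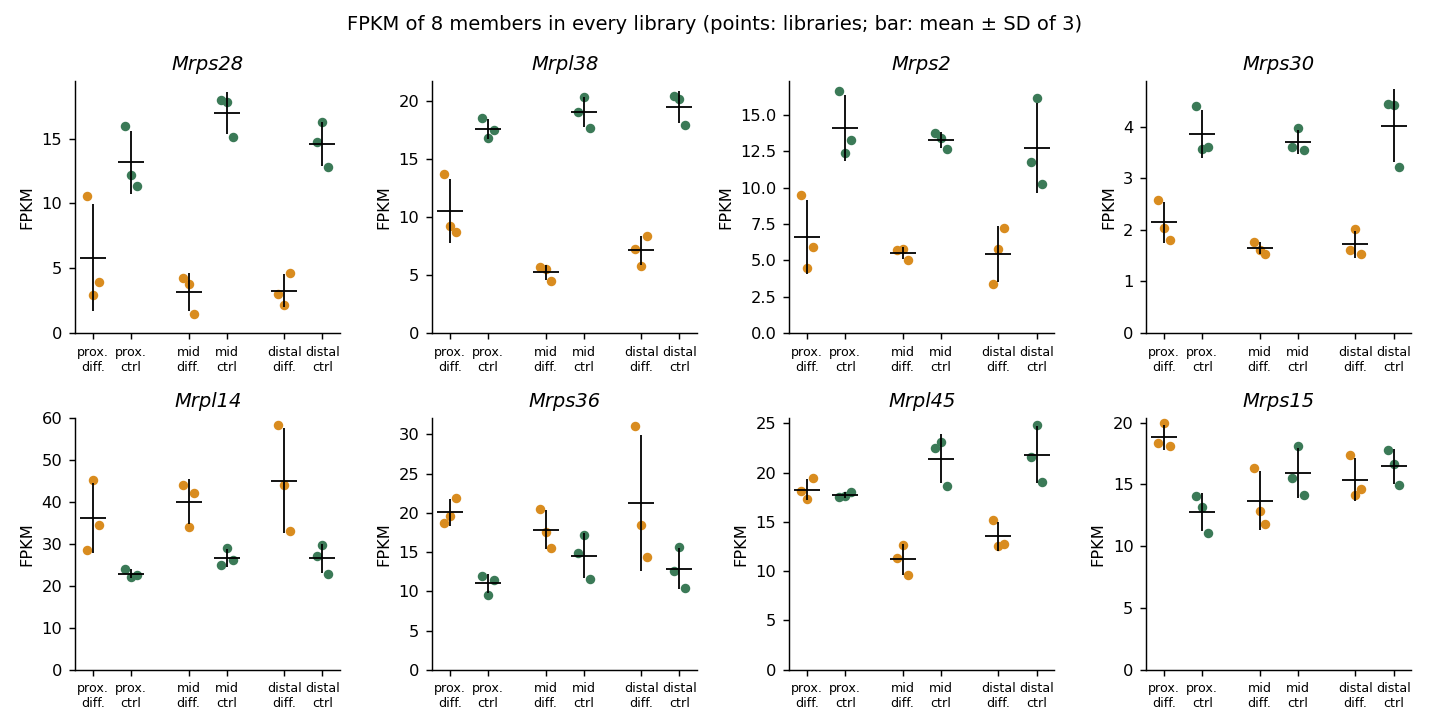
FPKM of 8 mitochondrial ribosomal genes in each library (points) with the mean and SD of 3 libraries, for differentiation and control medium in proximal, mid and distal organoids. Mrps28, Mrpl38, Mrps2 and Mrps30 lie lower in differentiation medium in every region, also when libraries are scaled to total reads, while Mrpl14 lies higher in every region with FPKM as deposited and is not called when libraries are scaled to total reads. That scaling moves values down in differentiation medium.

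Mrps36, the gene with a product in the alpha-ketoglutarate dehydrogenase complex (ENSMUSG00000061474, mm39 chromosome 13, 100872463 to 100881167, minus strand), differed in direction from most ribosomal genes. It was at 18.7, 19.5 and 21.9 FPKM in proximal differentiation libraries and 11.9, 9.59 and 11.5 in proximal control libraries, without overlap (log2 fold change 0.81 ± 0.22, adjusted p = 0.006, limma). This was the 1 rise in proximal organoids that stayed a call with libraries scaled to total reads (0.51, adjusted p = 0.0365). In distal organoids it was at 31.1, 18.5 and 14.4 FPKM in differentiation and 12.6, 15.6 and 10.4 in control libraries. These groups overlapped, and the distal call (0.63 ± 0.22, adjusted p = 0.0212) was lost without distal differentiation replicate 1 or control replicate 3 (adjusted p = 0.133 and 0.0893) and with libraries scaled to total reads (0.20, adjusted p = 0.393). In mid organoids the value was 0.29 ± 0.22 (adjusted p = 0.269), and -0.12 when scaled to total reads. Processed copies of Mrps36 are annotated as pseudogenes, at no more than 1.45 FPKM in any library, and reads of near-identical copies may be split between them.

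Other rises passed the test in 1 or 2 regions. Mrps21 was at 48.8, 52.9 and 55.1 FPKM in proximal differentiation and 36.9, 41.9 and 36.7 in proximal control libraries (log2 fold change 0.43 ± 0.14, adjusted p = 0.014, limma), and it was also higher in distal organoids (0.51 ± 0.14, adjusted p = 0.0043). Mrpl27, the counterpart of bacterial L27 near the peptidyl transferase centre, was at 27.8, 28.1 and 27.0 FPKM in mid differentiation and 20.1, 19.9 and 16.9 in mid control libraries (0.52 ± 0.18, adjusted p = 0.0166). It was higher in distal organoids as well (0.66 ± 0.18, adjusted p = 0.00394), and reached 0.41 in proximal ones (adjusted p = 0.0578). Mrpl55, the mitochondrial counterpart of bacterial L31, was at 22.9, 18.2 and 17.3 FPKM in distal differentiation and 14.1, 10.2 and 11.7 in distal control libraries (0.66 ± 0.15, adjusted p = 0.00164). Groups did not overlap for any of these 5 called rises. All of them lost their call when libraries were scaled to total reads, with values between 0.06 and 0.23. The proximal call of Mrps21 was lost without proximal differentiation replicate 3 (adjusted p = 0.0531), and the mid call of Mrpl27 without mid control replicate 3 (adjusted p = 0.0662). The other called rises were Mrps31 in proximal organoids (0.37), which was not called without proximal differentiation replicate 1 (adjusted p = 0.0538), and Mrpl43, Mrpl51 and Mrps33 in distal organoids (0.37, 0.48 and 0.35). None of these 4 was called with libraries scaled to total reads, where the distal values of Mrpl43 and Mrps33 turned to -0.053 and -0.072.

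By place in the ribosome, both subunits had more falls than rises in each region. This also held with libraries scaled to total reads, which moves values down in differentiation medium and is no separate evidence for falls. Of all tested genes, 26.2%, 32.0% and 31.3% were lower and 27.6%, 31.5% and 31.6% higher in proximal, mid and distal organoids. Of 50 large-subunit genes, 14 were lower and 1 higher in proximal, 25 lower and 2 higher in mid, and 21 lower and 5 higher in distal organoids. Of 26 small-subunit genes, 10 were lower and 4 higher in proximal, 14 lower and 1 higher in mid, and 14 lower and 3 higher in distal organoids. Median log2 fold changes were -0.18, -0.39 and -0.29 for the large and -0.27, -0.45 and -0.40 for the small subunit in the 3 regions in that order. Genes with a bacterial counterpart (47) had 16, 25 and 21 lower and 4, 3 and 5 higher, and mitochondrion-specific ones (29) had 8, 14 and 14 lower and 1, 0 and 3 higher. The difference between these sets was not tested. When proximal differentiation replicate 1 was left out, 21 large-subunit and 12 small-subunit genes were lower in proximal organoids and 1 and 3 were higher. Of genes with a bacterial counterpart 19 were then lower and 4 higher, and of mitochondrion-specific ones 14 were lower and 0 higher. The background in that fit is not given.

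In the stalk of the large subunit, where elongation factors dock, 0, 2 and 1 of 4 measured genes were lower in proximal, mid and distal organoids and none was higher, against 2, 3 and 3 lower with libraries scaled to total reads. The background with FPKM as deposited was 26.2%, 32.0% and 31.3% lower, and 4 genes are too few to set against it. The background on total reads is not given, and counts on that scaling include the shift of the whole table. Mrpl11 was also lower in proximal organoids without proximal differentiation replicate 1 (-0.31, adjusted p = 0.0414, limma). Mrpl12 averaged 69.7 ± 10.4 FPKM in mid differentiation and 72.6 ± 8.86 in mid control libraries (log2 fold change -0.06 ± 0.20, adjusted p = 0.801, limma), and values of 0.16 and 0.17 in proximal and distal organoids were not called. Mrpl10, which anchors the stalk, averaged 29.3 ± 2.90 FPKM in mid differentiation and 31.7 ± 2.90 in mid control libraries (-0.11 ± 0.11, adjusted p = 0.383), and was called in no region, but it was lower in all 3 with libraries scaled to total reads (-0.36, -0.53 and -0.52 in proximal, mid and distal organoids). Mrpl11, at the base of the stalk, was lower in mid organoids at 4.27, 3.69 and 3.51 FPKM in differentiation and 7.66, 8.34 and 8.09 in control libraries (-0.91 ± 0.13, adjusted p = 2.44e-05). It was lower in distal organoids too (-0.77 ± 0.13, adjusted p = 0.000112), and was at -0.18 in proximal ones (adjusted p = 0.252). Mrpl54, a mitochondrion-specific protein of the stalk region, was lower in mid organoids (-0.40 ± 0.15, adjusted p = 0.0293), with overlapping groups. The call was lost without mid differentiation replicate 2 or 3 (adjusted p = 0.135 and 0.0704) or mid control replicate 1 or 2 (0.0721 and 0.153).

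At the central protuberance, 3 of 9 genes were lower in each region, and none was higher in proximal, 1 in mid and 2 in distal organoids. The lower counts are near the background of 26.2%, 32.0% and 31.3% lower in proximal, mid and distal organoids. The background for higher genes was 27.6%, 31.5% and 31.6%. With libraries scaled to total reads 5, 6 and 6 were lower and none was higher, and without proximal differentiation replicate 1 the proximal count was 4. The background shares are for FPKM as deposited with all libraries, and those of these 2 settings are not given. Mrpl52 fell in all 3 regions beside Mrpl38. In proximal organoids Mrpl52 was at 33.5, 21.2 and 21.5 FPKM in differentiation and 41.9, 42.5 and 37.2 in control libraries, and its log2 fold change was -0.68 ± 0.18 in proximal, -0.95 ± 0.18 in mid and -0.86 ± 0.18 in distal organoids (adjusted p = 0.00549, 0.000335 and 0.000789, limma). Its proximal value was -0.89 without proximal differentiation replicate 1. Mrpl58, a peptidyl-tRNA hydrolase that frees stalled ribosomes and is also built into the large subunit, was lower in mid (-0.62 ± 0.17, adjusted p = 0.0043) and distal organoids (-0.46 ± 0.17, adjusted p = 0.0255), with overlapping groups in distal ones. Mrpl40 passed the test in proximal organoids (-0.34 ± 0.13, adjusted p = 0.0364), with -0.29 in mid (adjusted p = 0.0559) and -0.24 in distal organoids (adjusted p = 0.113). Mrpl46, Mrpl48 and Mrpl18 were not called in any region, although Mrpl46 was lower in all 3 with libraries scaled to total reads (-0.64, -0.81 and -0.73 in proximal, mid and distal organoids). The distal call of Mrpl58 was lost without distal differentiation replicate 3 (adjusted p = 0.146) or distal control replicate 1 or 2 (0.0841 and 0.0739). That of Mrpl40 was lost without proximal differentiation replicate 2 or 3 (adjusted p = 0.169 and 0.0556) or proximal control replicate 2 or 3 (0.107 and 0.0908).

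Around the exit of the peptide tunnel, where new chains leave toward the inner membrane, none of 7 genes was higher, and 4, 5 and 4 were lower in proximal, mid and distal organoids. The background was 26.2%, 32.0% and 31.3% lower, and the difference was not tested. The proximal count was 5 without proximal differentiation replicate 1. Mrpl45, which tethers the ribosome to the inner membrane (ENSMUSG00000018882, mm39 chromosome 11, 97206542 to 97220746, plus strand), depended on the region. It was at 11.3, 12.7 and 9.58 FPKM in mid differentiation libraries, against 22.5, 23.1 and 18.6 in mid control libraries. In distal organoids it was at 15.2, 12.5 and 12.8 FPKM in differentiation and 21.5, 24.8 and 19.1 in control libraries, and in proximal organoids at 18.2, 17.3 and 19.4 in differentiation and 17.6, 17.6 and 18 in control libraries. The media were apart in mid and distal organoids and overlapped in proximal ones. The log2 fold change was -0.88 ± 0.12 in mid, -0.65 ± 0.12 in distal and 0.04 ± 0.12 in proximal organoids (adjusted p = 1.77e-05, 0.000271 and 0.799, limma), and the proximal value was -0.27 with libraries scaled to total reads.

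Differences in the medium response between regions were tested as an interaction. Between mid and proximal organoids 9 of 77 genes differed, 8 with a lower and 1 with a higher response in mid organoids (11.7%, against a background of 12.0%, 6.37% lower and 5.62% higher). Between distal and proximal organoids 3 genes differed, 2 with a lower and 1 with a higher response (background 8.24%, 4.09% lower and 4.16% higher), and between distal and mid organoids none did (background 0.031%, 0.0233% lower and 0.00775% higher, with 2 genes at an unadjusted p under 0.05, limma). Without proximal differentiation replicate 1, the counts were 7 (2 higher, 5 lower) between mid and proximal and 2 (1 higher, 1 lower) between distal and proximal organoids. The background in that fit is not given. Mrpl45 differed from proximal organoids by -0.92 ± 0.17 in mid (adjusted p = 0.00309) and by -0.69 ± 0.17 in distal organoids (adjusted p = 0.0219), the distal call being lost without any of 4 libraries (adjusted p = 0.0562 for proximal differentiation replicate 3, 0.0538 for proximal control replicate 2, 0.0611 for distal differentiation replicate 2 and 0.0562 for distal control replicate 2). Mrpl38 differed by -0.98 ± 0.21 in mid (adjusted p = 0.00813), Mrpl37 by -0.82 ± 0.22 (adjusted p = 0.024) and Mrpl11 by -0.73 ± 0.18 (adjusted p = 0.0178). Leaving out 1 library gave adjusted p-values of up to 0.061 for Mrpl37 (without mid control replicate 2) and 0.0535 for Mrpl11 (without proximal control replicate 3), and the call of Mrpl38 held in all 18 fits.

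Mrps15, the counterpart of bacterial S15 in the small subunit (ENSMUSG00000028861, mm39 chromosome 4, 125940718 to 125949325, plus strand), was higher in proximal differentiation libraries at 18.3, 19.9 and 18.1 FPKM, against 14.1, 13.1 and 11.1 in proximal control libraries. These groups did not overlap (log2 fold change 0.53 ± 0.13, adjusted p = 0.00322, limma). In mid organoids it was at 16.3, 12.8 and 11.8 FPKM in differentiation and 15.5, 18.1 and 14.1 in control libraries (-0.21 ± 0.13, adjusted p = 0.17), and in distal organoids at 17.3, 14.1 and 14.6 in differentiation and 17.7, 16.7 and 15 in control libraries (-0.10 ± 0.13, adjusted p = 0.541). The response differed from proximal organoids by -0.74 ± 0.18 in mid (adjusted p = 0.0173) and by -0.62 ± 0.18 in distal organoids (adjusted p = 0.0496). With libraries scaled to total reads, the proximal rise was not called (0.23, adjusted p = 0.152), mid and distal organoids were lower (-0.62 and -0.53), and both differences of response were calls (adjusted p = 0.00957 and 0.0216). The mid difference reached an adjusted p of 0.0537 without mid control replicate 2. The distal difference was called in 5 of 18 fits that each left out 1 library, and its adjusted p reached 0.132 without proximal control replicate 3.

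Mrps6, the counterpart of bacterial S6 in the small subunit (ENSMUSG00000039680, mm39 chromosome 16, 91855158 to 91909115, plus strand), had the largest rise. In mid organoids it was at 62.1, 62.8 and 48.0 FPKM in differentiation and 25.3, 23.5 and 19.0 in control libraries. In distal organoids it was at 58.3, 67.5 and 56.2 FPKM in differentiation and 23.6, 39.4 and 24.5 in control libraries. In proximal organoids it was at 25.6, 25.0 and 25.7 FPKM in differentiation and 31.5, 19.6 and 25.5 in control libraries. The media were far apart in mid and distal organoids and overlapped in proximal ones. The log2 fold change was 1.31 ± 0.19 in mid (adjusted p = 3.34e-05, limma), 1.07 ± 0.19 in distal (adjusted p = 0.000215) and 0.02 ± 0.19 in proximal organoids (adjusted p = 0.944). Scaled to total reads, mid and distal organoids stayed higher (0.89 and 0.62, adjusted p = 0.00196 and 0.0194), and proximal ones were at -0.29. The response differed from proximal organoids by 1.29 ± 0.27 in mid (adjusted p = 0.00734) and by 1.05 ± 0.27 in distal organoids (adjusted p = 0.0286). The distal difference was not called with libraries scaled to total reads (adjusted p = 0.0827) or in 7 of 18 fits that each left out 1 library (adjusted p of 0.0524 without proximal differentiation replicate 2 to 0.0753 without distal differentiation replicate 2).

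The reads of Mrps6 cannot be fully separated from those of Slc5a3, a myo-inositol transporter. Slc5a3 lies on the same strand and overlaps Mrps6 by 29152 bases, 54.0% of the gene, and in human both are known to share a promoter and a first exon. Slc5a3 was at 12.7, 15.8 and 10.9 FPKM in mid differentiation libraries and 4.77, 3.93 and 4.08 in mid control libraries (log2 fold change 1.41 ± 0.22, adjusted p = 4.87e-05, limma). In distal organoids it was at 12.7, 19.1 and 16.1 FPKM in differentiation and 4.01, 7.97 and 3.85 in control libraries (1.48 ± 0.22, adjusted p = 3.58e-05), and in proximal organoids at 4.91, 4.32 and 5.82 in differentiation and 6.29, 4.33 and 5.46 in control libraries (-0.08 ± 0.22, adjusted p = 0.790). Its response differed from proximal organoids by 1.49 ± 0.31 in mid and 1.55 ± 0.31 in distal organoids (adjusted p = 0.00622 and 0.00527). Whether the reads came from transcripts of Mrps6 or of Slc5a3 was not tested.

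**Figure D4:**
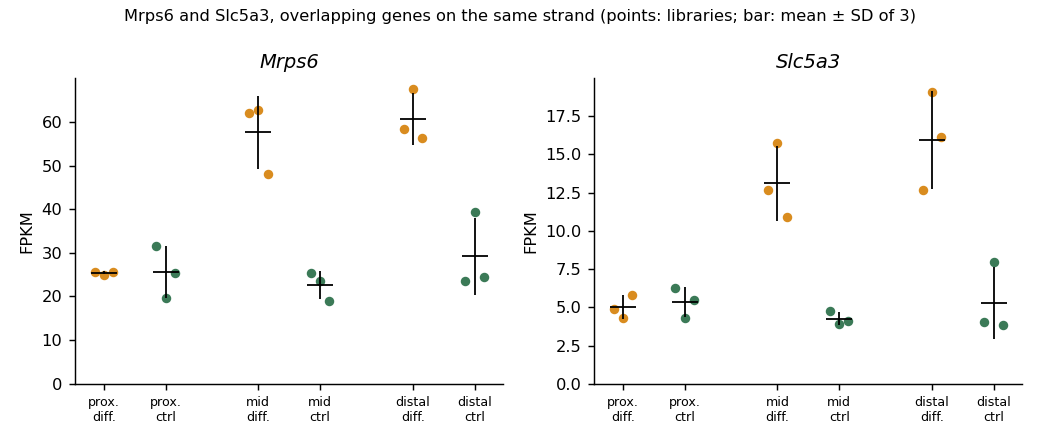
FPKM of Mrps6 and of Slc5a3, which overlaps it on the same strand, in each library (points) with the mean and SD of 3 libraries. Both are higher in differentiation than in control medium in mid and distal organoids, Mrps6 also with libraries scaled to total reads, and the media overlap in proximal organoids.

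Regions were also compared within a medium. In differentiation medium, 9 genes were higher and 5 lower in distal than in proximal organoids (18.2%, background 29.9%, 15.6% higher and 14.3% lower), and 5 were higher and 6 lower in mid than in proximal organoids (14.3%, background 29.4%, 15.6% higher and 13.7% lower). Without proximal differentiation replicate 1 these counts became 15 higher and 3 lower, and 11 higher and 4 lower. The background in that fit is not given, so a general gain of calls may be included. Scaled to total reads, they were 5 higher and 7 lower, and 1 higher and 6 lower, and the median of all genes shifted to -0.10 in both comparisons. Mrps6 was highest among the rises (1.22 ± 0.19 in distal and 1.14 ± 0.19 in mid organoids, adjusted p = 0.000208 and 0.000389, limma). Mrps23, a mitochondrion-specific small-subunit protein, was at 46.7, 36.3 and 29.3 FPKM in distal differentiation libraries and 26.6, 20.8 and 20.7 in proximal differentiation libraries, without overlap (0.68 ± 0.17, adjusted p = 0.00604). Mrpl47, at the tunnel exit, was at 4.02, 3.14 and 2.73 FPKM in mid and 2.55, 1.66 and 1.87 in proximal differentiation libraries (0.50 ± 0.14, adjusted p = 0.0108), a call that was lost with libraries scaled to total reads (adjusted p = 0.0636) and without proximal differentiation replicate 2 or mid differentiation replicate 1 (0.0516 and 0.0655). Mrpl11 was lower in distal (-0.52 ± 0.13, adjusted p = 0.00679) and Mrpl38 and Mrpl45 were lower in mid than in proximal organoids (-0.87 ± 0.15 and -0.67 ± 0.12, adjusted p = 0.000427 and 0.00066). Between distal and mid organoids no gene was called (background 0.69%, 0.209% higher and 0.481% lower, with 2 genes at an unadjusted p under 0.05).

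In control medium few genes were called between regions, although most values lay above those of proximal organoids. Fitted log2 fold changes against proximal organoids were above 0 for 67 of 77 genes in distal and 62 of 77 in mid organoids. Their medians were 0.16 and 0.20. With libraries scaled to total reads they were 0.17 and 0.18, where the medians of all tested genes were 0.02 and 0.01. The direction of the genes as a set was not tested. In distal organoids 1 gene was higher than in proximal ones (1.3%, background 10.5%, 5.57% higher and 4.98% lower), and in mid organoids 5 genes were higher (6.49%, background 13.3%, 7.99% higher and 5.28% lower). Of those 5, 3 were called with libraries scaled to total reads, and without proximal differentiation replicate 1 the counts were 4 and 7 higher. That library is in no control group, so the fitted differences stayed the same. Only the fit shared by all libraries changed. The gene in distal organoids was Mrps5, the counterpart of bacterial S5, at 9.98, 9.59 and 8.83 FPKM in distal and 6.98, 6.41 and 5.75 in proximal control libraries, without overlap (log2 fold change 0.51 ± 0.12, adjusted p = 0.0152, limma). This call was lost without proximal control replicate 2 or 3 (adjusted p = 0.0527 and 0.0839) or distal control replicate 1 or 2 (0.0573 and 0.0509). In mid organoids Mrpl49, a mitochondrion-specific large-subunit protein, was at 19.8, 21.8 and 18.1 FPKM, against 13.9, 11 and 10.8 in proximal control libraries (0.71 ± 0.16, adjusted p = 0.00918). Mrpl18, the relative of bacterial L18, was at 20.1, 25 and 19.7 FPKM in mid and 14.9, 13.1 and 11.6 in proximal control libraries (0.67 ± 0.18, adjusted p = 0.0186). Leaving out proximal control replicate 3 ended the call of Mrpl49 (adjusted p = 0.0509), and that of Mrpl18 was lost without proximal control replicate 2 or 3 or mid control replicate 2 (0.0642, 0.0944 and 0.0969). The remaining calls were Mrpl16, Mrpl20 and Mrpl41 (0.53, 0.51 and 0.48). Between distal and mid control libraries none was called (background 0.326%, 0.14% higher and 0.186% lower, with 1 gene at an unadjusted p under 0.05).

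Other genes of mitochondrial translation were followed in lists. The background in proximal, mid and distal organoids was 26.2%, 32.0% and 31.3% lower and 27.6%, 31.5% and 31.6% higher. These shares are for FPKM as deposited, and those with libraries scaled to total reads are not given here or below. List counts on that scaling therefore include the shift of the whole table. Of 5 mitochondrial ribosomal proteins with other names, 3 were lower in proximal and 4 in each of the other regions, and none was higher, with median log2 fold changes of -0.74, -1.14 and -0.79. All 5 were lower in each region with libraries scaled to total reads. Chchd1 of the small subunit averaged 11.1 ± 0.696 FPKM in mid differentiation and 26.8 ± 1.81 in mid control libraries (-1.20 ± 0.096, adjusted p = 1.14e-07, limma). Gadd45gip1 of the large subunit averaged 1.83 ± 0.514 in mid differentiation and 5.42 ± 0.445 in mid control libraries (-1.19 ± 0.21, adjusted p = 0.000173). Of 24 assembly and rRNA modification factors measured, 14, 17 and 17 were lower and 1 was higher in proximal, mid and distal organoids (medians -0.47, -0.52 and -0.59). The GTPase Noa1 fell most among them (-1.42, -1.67 and -1.78), and Mpv17l2, which acts in assembly, was the one that rose (0.70, 0.35 and 0.62), with a call in proximal organoids alone when scaled to total reads. Of 15 translation factors, 3, 7 and 4 were lower and 1 was higher in the 3 regions. The proximal counts were 8 lower and 2 higher without proximal differentiation replicate 1. The distal count was then 6 lower, although that library is in no distal group and the distal median stayed at -0.077. With libraries scaled to total reads 9, 10 and 9 were lower and none was higher. The elongation factor Tsfm was lowest (-0.86, -1.53 and -1.46), and the initiation factor Mtif3 was higher (0.38, 0.41 and 0.61) but not called with libraries scaled to total reads. Of 20 genes that charge mitochondrial tRNAs, 10, 15 and 13 were lower and 0, 0 and 3 were higher. The 3 distal rises, of Qrsl1, Fars2 and Lars2 (0.51, 0.35 and 0.62), were not called with libraries scaled to total reads (0.15, -0.024 and 0.18), where 17 genes were lower in distal organoids.

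Of the RNAs encoded in mitochondrial DNA, 13 mRNAs and 2 rRNAs were examined. In mid and distal organoids most of these were higher in differentiation medium, and in proximal organoids both rRNAs were, with few calls among the mRNAs. The rRNAs mt-Rnr1 and mt-Rnr2 were higher in differentiation medium in all 3 regions, also with libraries scaled to total reads. In mid organoids mt-Rnr2 averaged 792 ± 125 FPKM in differentiation and 225 ± 20.8 in control libraries (log2 fold change 1.80 ± 0.24, adjusted p = 1.20e-05, limma). These libraries were made by poly-A selection. Of the 13 mRNAs, 2 were higher in proximal and 12 in each of the other regions, and none was lower with FPKM as deposited, with medians of 0.35, 1.5 and 1.51. Scaled to total reads, 11 were higher in mid and in distal organoids, and in proximal organoids none was higher and 1 was lower. The mitochondrial genome took 4.56% ± 0.346 of reads in mid differentiation and 2.50% ± 0.209 in mid control libraries, 4.96% ± 0.851 in distal differentiation and 2.67% ± 0.443 in distal control libraries, and 2.57% ± 0.192 in proximal differentiation and 2.05% ± 0.0417 in proximal control libraries.

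**Figure D5:**
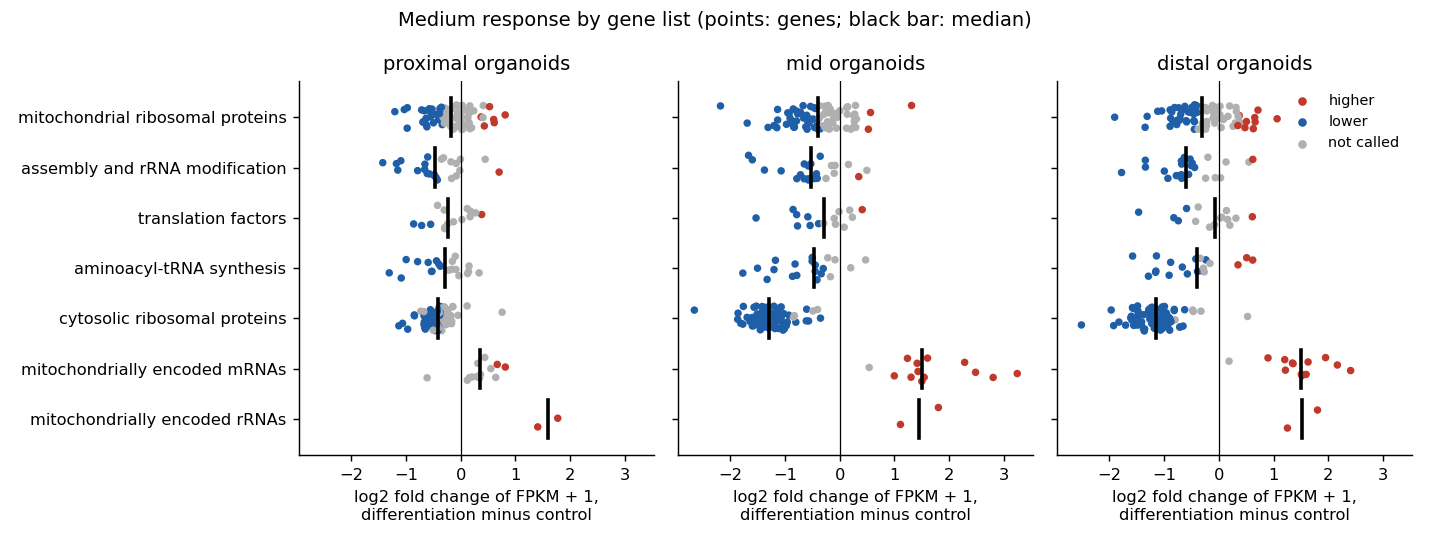
Log2 fold change of FPKM + 1 in differentiation minus control medium for the genes of each list, by region, beside the mitochondrial ribosomal genes. The median of mitochondrial ribosomal genes (-0.18, -0.40 and -0.30 in proximal, mid and distal organoids) lies between those of cytosolic ribosomal genes (-0.42, -1.30 and -1.15) and of the mRNAs encoded in mitochondrial DNA (0.35, 1.5 and 1.51). With libraries scaled to total reads, the proximal mRNAs encoded in mitochondrial DNA had 1 lower and 0 higher call.

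Cytosolic ribosomal protein genes, many of which have processed copies that can share reads, were lower in 44, 77 and 76 of 81 measured cases in proximal, mid and distal organoids and higher in none. They were taken by symbol, which lets in Rps19bp1, named for binding a ribosomal protein, and genes named as copies, such as Rps18-ps5. The proximal count was 71 with libraries scaled to total reads. Of 20 genes of cycling cells, 8, 20 and 19 were lower and none was higher, and the count in proximal organoids was 19 without differentiation replicate 1. The cycling genes moved with the medium in the same libraries as the mitochondrial ribosomal genes, and their part in the result was not tested. Among 11 regulators of mitochondrial transcription and biogenesis, 4, 5 and 5 were lower and 3 were higher in each region, and with libraries scaled to total reads 7, 8 and 8 were lower and 2, 3 and 3 higher. Myc fell most (-2.59 ± 0.38, -2.72 ± 0.38 and -3.09 ± 0.38 in proximal, mid and distal organoids), at 13.8 ± 3.06 FPKM in mid differentiation and 95.2 ± 8.01 in mid control libraries. The mitochondrial RNA polymerase gene Polrmt fell as well (-0.84, -0.79 and -0.87). The coactivator genes Ppargc1a (1.31, 1.38 and 1.58) and Ppargc1b (0.75, 1.81 and 2.27) rose in all 3 regions, and Ppargc1b was not called in proximal organoids with libraries scaled to total reads.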

How the data were processed

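The authors deposited FPKM (scaled to the length of the gene and the size of the library) for every gene and library, with gene lengths and mm39 positions. Alignment with HISAT2 2.0.5 and counting with featureCounts 1.5.0-p3 are named in the submitters' processing notes, and the annotation release and the scaling are not given in the sources used here. FPKM times gene length gave whole reads for 100% of values in every library (tolerance 0.001), so reads were recovered. The library sizes behind the FPKM were proportional to median-of-ratios factors (relative ratio 0.999996 to 1), and summed reads over these sizes ran from 0.831 to 1.32. The 6 deposited columns of group means were not tested, and 0 value columns lacked a sample.

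Values were analysed as log2(FPKM + 1), which understates changes of genes with low values, in the 12896 genes that reached 1 FPKM in 3 or more libraries. A linear model with 6 group means was fitted to 18 libraries (limma 3.58.1, R 4.3.3), with moderated two-sided tests, a variance trend and 12 residual degrees of freedom. P-values were adjusted by Benjamini-Hochberg across all tested genes per comparison, and calls were made under 0.05. Errors beside fold changes are SE and those beside FPKM are SD over 3 libraries. The model was tested on simulated data. Tables and plots used Python 3.11.15, pandas 2.3.3, numpy 2.4.6 and matplotlib 3.10.9. Alternatives were a pseudocount of 0.1, a filter of 5 FPKM or none, scaling to total reads, median-of-ratios factors, only the groups compared, limma voom on recovered reads, replicate number as a block, and each library left out.

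The genes and lists were chosen with earlier results of these data known. Named genes were the 4 highest and 2 lowest in level, up to 4 called rises and falls per medium comparison (mean of at least 5 FPKM in a group), 2 per direction in the other comparisons, and genes of the stalk, the central protuberance or with misleading symbols. Genes outside this rule were named after their values were seen. The 6 pseudogene rows of the same names were left out. Another gene overlaps 41 of the 78 genes, in 20 cases at a mean of at least 1 FPKM and in 2 of these on the same strand (Mrps6 with Slc5a3 and Mrps24 with Urgcp).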

Additional observations from a re-analysis of the deposited data

Results flagged for a closer look

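The medium response of 9 genes differed between mid and proximal organoids by the test of the interaction (limma, adjusted p under 0.05), here as log2 differences of response. These were 11.7% of the 77 genes, near the 12.0% of all tested genes. Mrps6 responded more in mid organoids (1.29), and the other 8 less or more negatively, namely Mrpl38 (-0.98), Mrpl45 (-0.92), Mrpl37 (-0.82), Mrps15 (-0.74), Mrpl11 (-0.73), Mrpl57 (-0.61), Mrps10 (-0.56) and Mrps9 (-0.55). Between distal and proximal organoids the response differed for Mrps6 (1.05), Mrpl45 (-0.69) and Mrps15 (-0.62), against a background of 8.24%. In 18 fits that each left out 1 library, these 3 were called in 11, 14 and 5 fits. Between mid and proximal organoids Mrps6, Mrpl38 and Mrpl45 were called in all 18 fits, and the other 6 in 7 (Mrps9) to 17 (Mrpl11). Mrps6, Mrpl45 and Mrps15 stand in both sets, which share the proximal libraries. All 9 differences between mid and proximal organoids stayed calls with libraries scaled to total reads, and of the 3 between distal and proximal organoids those of Mrpl45 and Mrps15 did.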

How the results depend on the processing

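With libraries scaled to total reads, 49 were called in proximal organoids (1 higher, 48 lower), 1 was higher and 60 lower in mid, 1 was higher and 57 lower in distal, 3 differed between mid and proximal control libraries and 7 between mid and proximal differentiation libraries. The medium counts include a shift of the median of all tested genes to -0.26, -0.34 and -0.35 in proximal, mid and distal organoids. Values above 0 of 15, 13 and 13 uncalled genes in proximal, mid and distal organoids went below 0 on that scaling, as did those of 2 genes called higher in distal organoids (Mrpl43 and Mrps33). Among the genes named by rule, these were, in proximal organoids, Mrpl12 (-0.16), Mrpl34 (-0.27), Mrps6 (-0.29), Mrpl48 (-0.20), Mrpl55 (-0.10), Mrpl49 (-0.13), Mrpl45 (-0.27) and Mrpl54 (-0.22). In mid organoids they were Mrpl34 (-0.29), Mrps21 (-0.17), Mrps18c (-0.19), Mrps36 (-0.12), Mrpl55 (-0.26) and Mrps23 (-0.11), and in distal organoids Mrpl12 (-0.28), Mrpl34 (-0.096), Mrps18c (-0.12), Mrpl18 (-0.24) and Mrps23 (-0.057). Summed reads over the deposited library sizes ran from 0.959 to 1.32 in differentiation and from 0.831 to 0.873 in control libraries.

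Fitting only the groups compared, which leaves fewer libraries to estimate the spread, gave 17 calls in proximal organoids (11 lower), 6 higher in mid, 5 higher in distal, 11 between mid and proximal controls, 3 between distal and proximal and 5 between mid and proximal differentiation libraries, and 1 difference of response between distal and proximal organoids. The last count was also 1 with no filter on low values. With voom on recovered reads, 8 differed between mid and proximal controls. For these 2 settings the cause was not tested.

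Same-numbered libraries correlated at -0.387 to 0.542 in their deviations from the group means (median 0.11, n = 45 pairs). Libraries of unlike numbers correlated at -0.468 to 0.399 (median -0.063, n = 90 pairs), and 9 of 18 libraries correlated best with their own number. These values lean toward same-numbered libraries and do not settle whether the numbers are pairs. The numbers were not taken as pairs because no label says that they pair the libraries. With the replicate block, 6 genes were higher in mid organoids, 3 differed between distal and proximal and 10 between mid and proximal controls, and 5 differed in response between distal and proximal organoids.

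Leaving out 1 library at a time gave 17 to 38 calls in proximal organoids (5 to 8 higher, 11 to 33 lower), 38 to 46 in mid (2 to 5 higher, 34 to 42 lower) and 39 to 47 in distal ones (7 to 13 higher, 30 to 39 lower). Control libraries gave 0 to 4 calls between distal and proximal and 1 to 7 between mid and proximal organoids, differentiation libraries 8 to 18 and 6 to 15, and the differences of response 0 to 5 and 3 to 10. Among the genes named by rule, uncalled values that crossed 0 were, in proximal organoids, Mrpl34 (-0.051 to 0.13), Mrps6 (-0.15 to 0.18), Mrpl48 (-0.046 to 0.11), Mrpl49 (-0.014 to 0.28), Mrpl45 (-0.0011 to 0.078), Mrpl10 (-0.12 to 0.0099) and Mrpl54 (-0.041 to 0.17). In mid organoids Mrpl12 (-0.17 to 0.065) and Mrpl18 (-0.11 to 0.062) did so, and in distal organoids Mrpl49 (-0.15 to 0.043). The median-of-ratios factors changed none of 116 values of named genes, and the pseudocount of 0.1 changed 1 call. With 3 libraries a group, small differences of genes at a few FPKM may go uncalled.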
